A study of Mus musculus with 2 samples.

Results

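Microglia that carry few transcripts of reactive marker genes were described in the brains of mice with and without an experimental melanoma metastasis. They were chosen by their own transcript counts. A droplet barcode had to hold at least 1000 UMIs (unique molecular identifiers, each standing for 1 captured transcript), at least 500 genes and at most 20% mitochondrial UMIs. It had to hold at least 3 UMIs, and at least 0.15% of its UMIs, over the microglia genes P2ry12, Tmem119, Cx3cr1, Siglech and Gpr34. The melanoma genes Pmel, Mlana, Tyrp1 and Dct had to stay under 1% of its UMIs, and Lpl, Ccl12 and Cxcl9, which mark reactive microglia, under 3 UMIs together. The limits were met by 1501 of the 27740 barcodes kept in all, 694 in metastasis and 807 in naive.

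Both groups came from C57BL/6J mice aged 10 weeks. In the metastasis group, B16/F10-BrM cells, a brain-metastatic derivative of a mouse melanoma line, had been injected into the brain; the naive group is labelled only as naive brains. Each group was 1 library from a pool of 3 brains, dissociated, cleared of myelin and enriched with beads against ACSA-2, an astrocyte surface antigen, so the microglia are those that came through an enrichment for other cells. With 1 library a group there was no replicate of either condition and no test was made. Every interval is a 95% interval that covers counting error only, and a gene counts as higher or lower in metastasis when its level differed at least 2-fold, a rule of size. Levels are CPM, the UMIs of a gene per 1000000 UMIs summed over the microglia of a library, and log2 ratios are metastasis over naive. The titles of the 2 records were swapped by the submitters after release, and the groups follow the present ones. Pmel, a melanosome gene of the injected cells, had 154817 UMIs over the kept barcodes of metastasis and 3581 over those of naive.

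Microglia are the resident macrophages of the brain parenchyma. At rest they survey the tissue with fine processes, sense nucleotides through purinergic receptors such as P2ry12, and depend on signalling through Csf1r and TGF-beta to keep their identity. In disease they can reduce these homeostatic transcripts and increase genes of lipid handling, antigen presentation, chemokines and the interferon response. Lpl, which encodes lipoprotein lipase, Ccl12, a chemokine, and Cxcl9, an interferon-gamma-induced chemokine, belong to those programmes, so microglia with 3 or more UMIs of these genes were set apart from the ones described here.

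Microglia genes that the limits did not use were also higher in the microglia than in the other barcodes. Fcrls, an Fc receptor-like microglia gene, stood at 1143 CPM in the microglia and 56.6 CPM in the other barcodes of metastasis, and at 1228 and 5.39 CPM in naive. Sall1, a transcription factor of microglia identity, stood at 146 and 22.4 CPM in metastasis and at 218 and 33.7 CPM in naive. The macrophage gene Ms4a7 was higher too, at 524 and 180 CPM in metastasis and 23.4 and 2.04 CPM in naive. The monocyte gene Ly6c2 stood at 19.6 and 11.5 CPM in metastasis and at 0 and 2.95 CPM in naive. This comparison therefore does not separate microglia from other macrophages. The 5 genes of the limit itself are given as a description only. P2ry12 was at 954 CPM in metastasis and 1554 in naive, Tmem119 at 661 and 1005 CPM, Cx3cr1, the fractalkine receptor, at 2759 and 3529.7 CPM, Siglech at 697 and 1055 CPM, and Gpr34 at 839.8 and 1365 CPM. All 5 were thus lower in metastasis, by 0.36 to 0.70 on the log2 scale.

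Transcripts of other cells were present and differed between the libraries. At least 3 UMIs over 18 macrophage and monocyte genes were found in 123 of 694 microglia of metastasis (17.7%, 14.95 to 20.8%) and in 34 of 807 of naive (4.21%, 2.94 to 5.84%). More UMIs of that list than of the microglia genes were found in 94 and 20 of them. Of the 18 genes, 9 reached 50 UMIs, and 8 of these were higher in metastasis. The summed level was 1365 CPM in metastasis and 245 in naive. Ms4a7, a membrane protein of macrophages, led with 524 and 23.4 CPM. Ly6c2, a defining gene of blood monocytes, had 33 UMIs in metastasis and was at 0 in naive, and of the genes of border macrophages, Cd163 had 3 UMIs in metastasis and 5 in naive and Lyve1 had 1 and 0, while Pf4 stood at 135 and 59.2 CPM, Mrc1 at 51.6 and 27.0 CPM and F13a1 had 54 and 18 UMIs. The part of these barcodes in the results was not tested, so the main results are also given for the 571 and 773 microglia with under 3 such UMIs. They are given as well for the 326 and 561 with no such UMI, at least 10 UMIs of the microglia genes and at least 0.5% of UMIs, a subset chosen after seeing the data and here called marker-rich microglia. Oligodendrocyte genes outnumbered the microglia genes in 96 (13.8%) microglia of metastasis and 100 (12.4%) of naive, and choroid plexus genes, foremost among the free RNA of the suspension, in 458 (66.0%) and 734 (91.0%). Astrocyte and ependymal genes were lower in metastasis, at 588 CPM in metastasis and 1129 in naive over 10 astrocyte genes (median log2 ratio -0.90) and at 1048 and 1869 CPM over 10 ependymal genes (-0.72).

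The microglia were shallow. They held a median of 1751.5 UMIs and 1030 genes in metastasis and 1862 UMIs and 1065 genes in naive, and 1686215 and 1925948 UMIs in all. Of the kept barcodes, 53 occurred in both libraries; 7 microglia of metastasis and 5 of naive were among them. At the edge of the limits, 29 microglia of metastasis and 16 of naive had exactly 3 UMIs of the microglia genes, and 324 and 141 kept barcodes had 2. On the reactive genes, 438 microglia of metastasis had 0 UMIs, 163 had 1 and 93 had 2, against 58 just outside with 3 and 361 with more. In naive, 684 had 0, 97 had 1 and 26 had 2, against 10 with 3 and 23 with more.

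Microglia with under 3 UMIs of the reactive genes made up 5.05% (4.69 to 5.43%) of the kept barcodes of metastasis and 5.77% (5.39 to 6.17%) of those of naive. All barcodes with microglia markers made up 8.10% (7.65 to 8.57%) and 6.00% (5.61 to 6.41%). The microglia described here were 62.4% (59.4 to 65.2%) of these in metastasis and 96.1% (94.5 to 97.3%) in naive, since 419 and 33 barcodes held 3 or more UMIs of the reactive genes. These shares are descriptions of 2 bead-enriched suspensions, and the reactive genes, being part of the rule, set the last of them.

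Across 8620 genes with at least 50 UMIs over both libraries, 221 (2.56%) were at least 2-fold higher and 247 (2.87%) at least 2-fold lower in metastasis. The median log2 ratio of all genes was -0.14, and 10% and 90% of genes lay below -0.65 and 0.42. Against this background 7 of the 20 lists that are not cell markers had at least 40% of their measured members higher. Interferon response genes had 21 of 30 measured members higher, interferon-induced GTPases 6 of 8, MHC class I genes 10 of 19, disease-associated genes 13 of 22, MHC class II genes 4 of 8, chemokines and cytokines 6 of 15, and cell cycle genes 4 of 10. The cell cycle median turned negative at the larger of 2 subtractions of free RNA. None of the members of these 7 lists was 2-fold lower. The homeostatic list had none past 2-fold in either direction.

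**Figure D1:**
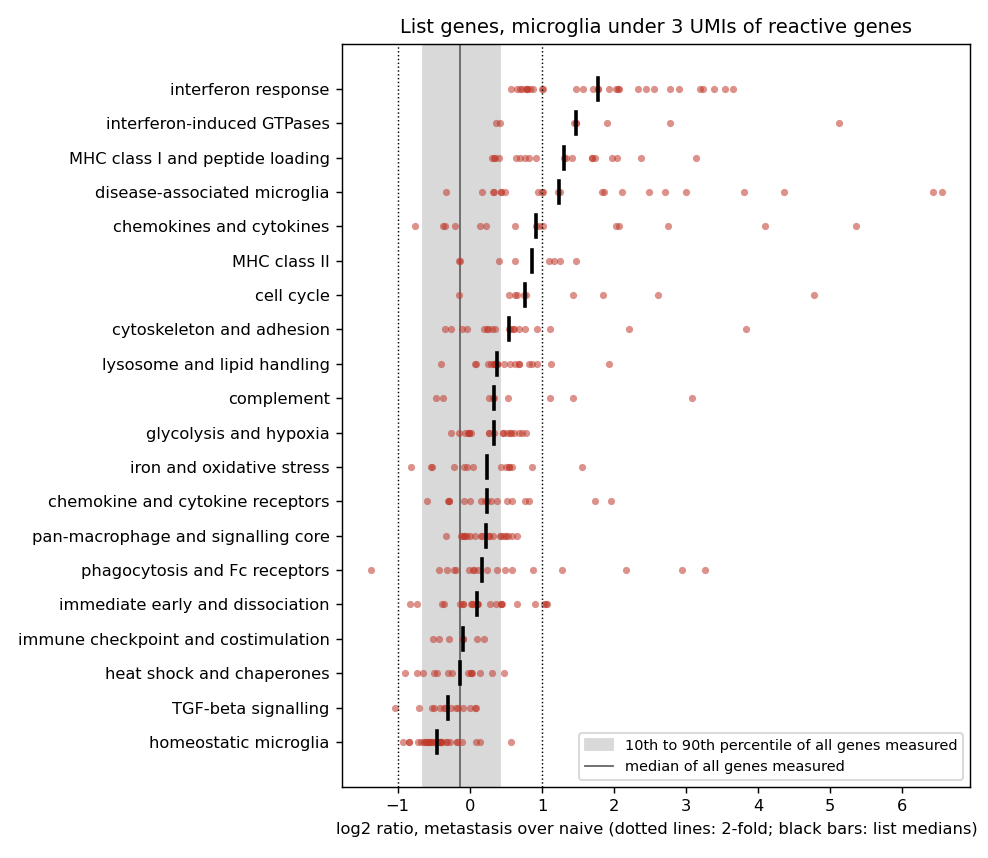
Log2 ratio, metastasis over naive, of each gene with at least 50 UMIs in 20 gene lists; points are genes, black bars list medians, the grey band the range of -0.65 to 0.42 that holds the middle of all 8620 genes, and dotted lines mark 2-fold. The interferon response list sits at the top with a median of 1.78 and the homeostatic list at the bottom with -0.46.

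The homeostatic genes were modestly lower in metastasis. All 30 were measured, their median log2 ratio was -0.46, and the intervals of 25 lay below 0. Together they made up 42321 CPM in metastasis and 61726 in naive. Cst3, the cysteine protease inhibitor cystatin C and the most abundant of them, stood at 24916 CPM in metastasis and 38886 in naive (log2 ratio -0.64, -0.66 to -0.62). Csf1r, the receptor on which microglia survival depends, stood at 1517 and 1996 CPM (-0.40, -0.47 to -0.32). Sall1 had 246 UMIs in metastasis and 420 in naive (-0.58, -0.81 to -0.35), a ratio that turned to 0.12 without the barcodes in which the genes of another cell type outnumbered the microglia genes (barcodes led by another marker list).

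The largest differences in the homeostatic list were those of Ecscr, Slc2a5, Jam2 and P2ry13. Ecscr, a surface protein first described in endothelium, stood at 149 CPM in metastasis and 284 in naive. Slc2a5, a fructose transporter, stood at 112 and 201.5 CPM. Jam2, a junctional adhesion molecule, stood at 40.3 and 72.2 CPM, and P2ry13, an ADP receptor related to P2ry12, at 253 and 414 CPM. Only Lag3, an inhibitory receptor that binds MHC class II, had an interval above 0 in this list, with 310 UMIs in metastasis and 238 in naive (0.57). In the microglia with under 3 macrophage UMIs the list median was -0.16, and in the marker-rich microglia it was -0.05. There Sall1 stood at 282 CPM in metastasis and 281 in naive. The microglia genes that define this subset rose and fell with the homeostatic list among cells (Spearman's rho 0.75 in metastasis and 0.58 in naive). Near-equal levels there are thus partly set by the choice of cells.

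Genes shared by all macrophages differed less. None of 20 was past 2-fold, the median was 0.22 and 12 intervals lay above 0. Fcer1g, the common gamma chain of Fc receptors, stood at 2379 CPM in metastasis and 1510 in naive. Cyba, a subunit of the phagocyte NADPH oxidase, stood at 1250 and 837 CPM, the lysosomal protease gene Ctsd at 6905 and 4791 CPM, and Aif1, which encodes the microglia stain Iba1, at 875 and 615 CPM. Tyrobp, the signalling adaptor of Trem2, stood at 2630 and 1966 CPM (0.42, 0.36 to 0.48). Trem2 itself, a lipid-sensing receptor, stood at 1929 and 1844 CPM (0.06) and its interval touched 0.

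Disease-associated genes, a set first described in microglia around amyloid plaques, were higher in metastasis with a median of 1.24, and 13 of 22 were past 2-fold. Apoe, the main apolipoprotein of the brain, was the most abundant member, at 38574 CPM in metastasis and 5889 in naive, of 57043 and 13186 CPM over the list (log2 ratio 2.71, 2.68 to 2.74). Apoe in free RNA stood at 16479 and 8810.2 CPM. Spp1, the secreted matrix protein osteopontin, had 982 UMIs in metastasis and 12 in naive (6.55, 5.74 to 7.50), and Gpnmb, a lysosomal glycoprotein that melanoma cells also make, had 300 and 4 (6.42, 5.05 to 8.31). Gpnmb stood at 178 CPM in the microglia of metastasis, below its 448 CPM in free RNA there. Cst7, the protease inhibitor cystatin F, had 125 and 7 UMIs (4.35), and Lyz2, lysozyme, stood at 6167 and 443 CPM (3.80, 3.70 to 3.90).

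The list median and the ratio of Apoe were smaller in microglia with under 3 macrophage UMIs, and smaller again in the marker-rich ones. In the microglia with under 3 macrophage UMIs, 10 of 22 disease-associated genes were higher, with a median of 0.77. Of all 8090 genes measured in that subset 1.24% were higher and 0.989% lower. In the marker-rich microglia 1 of 15 was higher, with a median of 0.30, and of all 5367 genes 0.894% were higher and 1.88% lower. Apoe differed there by 0.61 (0.54 to 0.69), at 5070 CPM in metastasis and 3312 in naive. Spp1 had 24 and 2 UMIs, Cst7 had 12 and 7, and Lyz2 had 311 and 176 (1.84, 1.56 to 2.11). The ratio of Apoe was thus much smaller than over all microglia. With no macrophage UMI but no further limit on the microglia genes, Apoe stood at 11753 CPM in metastasis and 4050 in naive. Among the cells of metastasis, Spearman's rho between Apoe and the 5 microglia genes was -0.57. The minimum on those genes thus selects cells low in Apoe, and the part of each limit was not tested. Apoe, Spp1, Cst7 and Lyz2 in the marker-rich microglia of metastasis stood at 5070, 43.9, 21.97 and 569 CPM, all below the free RNA of that library with 16479, 370, 35.04 and 2741 CPM. The free RNA of naive held 8810.2, 11.05, 0 and 55.3 CPM of them, and the part of free RNA in these ratios was not tested.

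**Figure D2:**
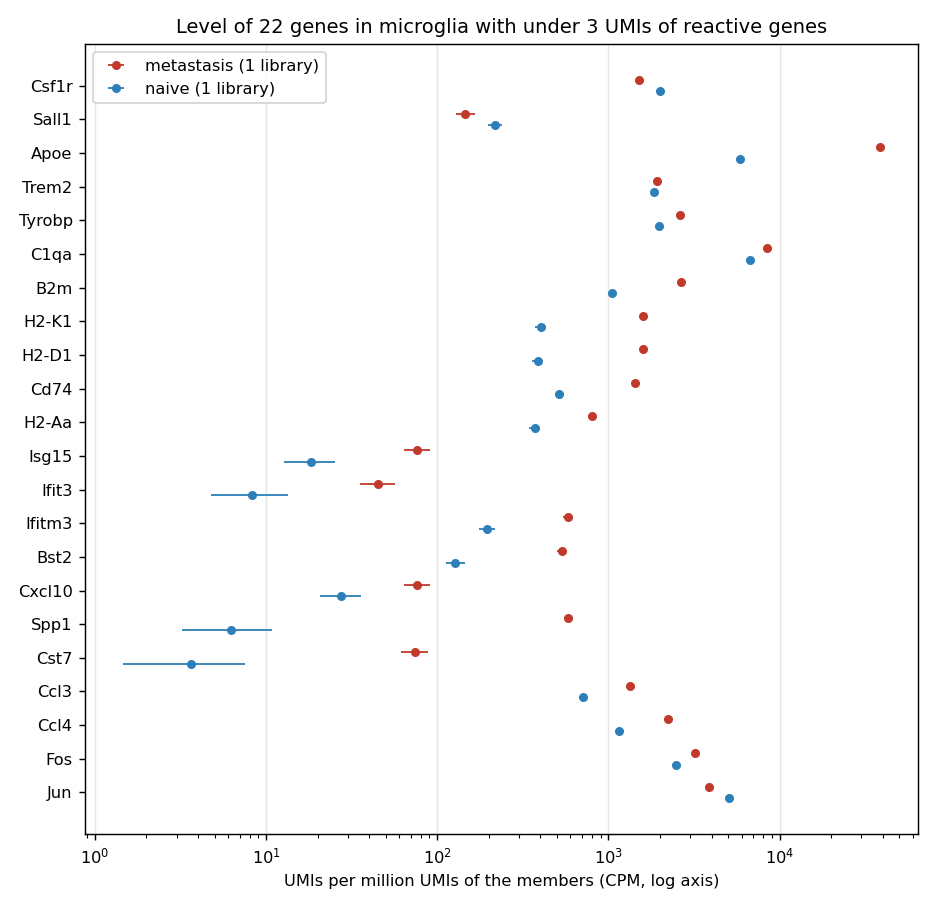
Level in CPM (log axis) of 22 genes in the microglia of metastasis (red, upper point) and naive (blue, lower point), 1 library each; bars are 95% Poisson intervals. Apoe is the farthest right at 38574 CPM in metastasis and 5889 in naive, while Trem2 lies at nearly the same level in both.

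Genes of the interferon response were higher in metastasis throughout the list. Of 38 genes, 30 were measured, the intervals of all 30 lay above 0, 21 were past 2-fold and the median log2 ratio was 1.78. The list summed to 3467 CPM in metastasis and 1020.3 in naive. Bst2, a surface protein that tethers virions, had 897 UMIs in metastasis and 246 in naive (2.06, 1.85 to 2.27). Ifitm3, which blocks viral entry, stood at 582 and 195 CPM (1.58), below its free RNA of 938 and 413 CPM. Isg15, a ubiquitin-like modifier, had 129 and 35 UMIs (2.07, 1.53 to 2.66), Ifit3, an antiviral protein of the tetratricopeptide repeat family, had 76 and 16 (2.44, 1.65 to 3.32), and Cxcl10, a T cell chemokine, had 129 and 53 (1.48). In metastasis these 3 also stood below free RNA, Isg15 at 76.5 CPM against 144 CPM, Ifit3 at 45.1 against 62.3 CPM and Cxcl10 at 76.5 against 125 CPM, and 24 of the 30 genes stood at or above free RNA in the library where they were higher.

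The members with the largest ratios were low in level. Oasl2, of the oligoadenylate synthetase family, had 88 UMIs in metastasis and 8 in naive (3.65). Zbp1, a sensor of Z-form nucleic acid, had 81 and 8 (3.53). Without barcodes led by another marker list its ratio was -0.41. That value comes from 220 and 68 microglia, with no minimum of UMIs and a sum of 0 set to 3 UMIs, so it may rest on this floor. Ifi204, of the DNA-binding interferon-inducible p200 family, had 110 and 12 (3.39), and Rtp4, a negative regulator of the interferon response in mice, had 99 and 12 (3.24). Family members such as the Oas, Ifi200 and Ifit genes are near-identical in places, so their reads could be split between them. Interferon-induced GTPases, which attack vacuoles of intracellular pathogens, had a median of 1.48 over 8 of 16 genes. Iigp1 had 91 and 3 UMIs (5.11, 3.52 to 7.42), Gbp2 had 72 and 12 (2.78), Gm12250, also known as Irgb10, had 46 and 14 (1.91), and Irgm1 had 39 and 16 (1.48). Of the 8, 1 stood at or above its free RNA level, and with free RNA subtracted Irgm1 turned to -2.24 and Gbp2 to -0.031. Neither turned when less free RNA was subtracted, at the fraction read from the choroid plexus gene Ttr.

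Many of these promoters carry the core of the interferon-stimulated response element, the motif bound by complexes of STAT and IRF proteins. The motif was searched as 2 copies of GAAA with any 2 bases between them, which reads as 2 copies of TTTC on the opposite strand, in RefSeq windows from 250 bases before to 50 bases after each transcription start. It occurred in 17 of 35 windows (48.6%) of the interferon response list, 10 of 12 (83.3%) of the GTPases, 5 of 19 (26.3%) of the MHC class I list and 0 of 31 of the homeostatic list. Over all 32851 windows the share was 3.44%, and over those of the genes measured here 3.08%. Matches may overlap. They describe the letters of the window and do not show a bound site. The promoters of Isg15 and Ifit3, members of the interferon list with large ratios, and of B2m, the most abundant member of the MHC class I list, show how the motif is placed. Each is given as the 250 bases before the start, 5′ to 3′ on the gene's strand in GRCm38.p6, with the motif in capitals.
Isg15, chr4:156200819-156201068, minus strand: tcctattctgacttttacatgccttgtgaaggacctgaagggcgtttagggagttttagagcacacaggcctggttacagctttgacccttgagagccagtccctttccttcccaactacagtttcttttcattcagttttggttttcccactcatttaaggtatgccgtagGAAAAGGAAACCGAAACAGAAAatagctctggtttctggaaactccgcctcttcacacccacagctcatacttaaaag
Ifit3, chr19:34583279-34583528, plus strand: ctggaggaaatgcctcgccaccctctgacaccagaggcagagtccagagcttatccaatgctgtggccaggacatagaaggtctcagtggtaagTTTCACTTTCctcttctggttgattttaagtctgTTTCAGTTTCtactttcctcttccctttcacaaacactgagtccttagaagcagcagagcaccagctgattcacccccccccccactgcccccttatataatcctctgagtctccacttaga
B2m, chr2:122147437-122147686, plus strand: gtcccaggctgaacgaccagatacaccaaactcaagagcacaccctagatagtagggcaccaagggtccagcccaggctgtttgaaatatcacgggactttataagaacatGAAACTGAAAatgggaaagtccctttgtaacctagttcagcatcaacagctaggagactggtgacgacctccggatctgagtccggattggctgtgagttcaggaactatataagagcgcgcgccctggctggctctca
The Isg15 window holds 3 overlapping matches in a single run, Ifit3 has 2 on the opposite strand, and B2m has 1, which begins 139 bases before the start.

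The ratios of the interferon list were smaller in the microglia with few macrophage UMIs and in the marker-rich ones. With under 3 such UMIs, 12 of 21 genes were higher and the median was 1.502. In the marker-rich microglia 7 of 14 were higher with a median of 0.98. Bst2 had 141 UMIs in metastasis and 142 in naive there, from fewer UMIs in all in metastasis, which gave a log2 ratio of 1.004 (0.66 to 1.35). Isg15 had 25 and 17 (1.57, 0.62 to 2.55), and Ifit3 had 10 and 8 (1.34), with an interval that included 0. All 3 stood below free RNA in these microglia of metastasis, Bst2 at 258 CPM against 292 CPM, Isg15 at 45.8 against 144 CPM and Ifit3 at 18.3 against 62.3 CPM. The same list was also higher in barcodes of another marker list. In 4856 barcodes with oligodendrocyte markers of metastasis against 4788 of naive, its median was 1.67 over 26 genes. The levels there were far lower, 463 CPM in metastasis and 225 in naive over the list. In the same barcodes the genes shared by all macrophages had a median of 2.36 and the macrophage and monocyte list 3.47. The astrocyte list had -0.52 and the ependymal list -0.54. In free RNA the interferon list stood at 2702 CPM in metastasis and 763 in naive, and the part of free RNA in these ratios was not tested.

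MHC class I genes, which present intracellular peptides to CD8 T cells, were higher in metastasis in both the heavy chains and the shared light chain. B2m, the light chain, stood at 2657 CPM in metastasis and 1051 in naive (1.34, 1.26 to 1.41). The classical heavy chains H2-K1 and H2-D1 stood at 1582 and 402 CPM (1.98, 1.86 to 2.09) and at 1593 and 386 CPM (2.05, 1.93 to 2.16). The non-classical H2-Q7 and H2-Q6 had 184 and 24 UMIs (3.13) and 50 and 11 UMIs (2.38), although reads of these near-identical genes can be split or lost. Tap1, a subunit of the peptide transporter, had 141 and 50 UMIs (1.69), and Psmb9, an immunoproteasome subunit, had 247 and 85 (1.73). Tapbp, or tapasin, with 284 and 258 UMIs (0.33), and Psmb10, with 215 and 185 (0.41), stayed within 2-fold.

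The list median was 1.31 over all microglia, 1.20 with under 3 macrophage UMIs and 0.71 in the marker-rich microglia, where 6 of 14 genes were past 2-fold. H2-K1 stood there at 1056 CPM in metastasis and 421 in naive (1.33, 1.15 to 1.51) and B2m at 2279 and 1277 CPM (0.84, 0.72 to 0.95). In oligodendrocyte-marker barcodes the list median was 1.53 over 16 genes, at a summed level of 492 CPM in metastasis and 184 in naive, against 7550.0 and 2721 CPM in the microglia. B2m in free RNA stood at 997 and 114 CPM.

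MHC class II genes, which present extracellular peptides to CD4 T cells, were carried by few cells. Over all microglia, Cd74, the invariant chain, stood at 1435 CPM in metastasis and 517 in naive (1.47, 1.37 to 1.58). H2-Ab1 stood at 837 and 352 CPM (1.25), H2-Eb1 at 874 and 389 CPM (1.17), and H2-Aa at 798 and 372 CPM (1.10, 0.97 to 1.23). H2-Aa was found in 150 microglia of metastasis and 35 of naive, and the 5 highest cells held 19.0% and 36.8% of its UMIs. When at least 5 microglia UMIs and 0.3% of UMIs were asked for, the ratio of H2-Aa turned to -0.26, that of H2-Ab1 to -0.23 and that of H2-Eb1 to -0.61. The peptide editors H2-DMa and H2-DMb1 stayed within 2-fold, with 404 and 347 UMIs and with 210 and 155 UMIs.

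With under 3 macrophage UMIs the ratios were larger, 3.77 for Cd74 and 4.39 for H2-Aa. In the marker-rich microglia Cd74 had 137 UMIs in metastasis and 31 in naive (3.16, 2.59 to 3.77) and H2-Aa had 59 and 6 (4.31, 3.10 to 5.81). Split by macrophage UMIs, the class II list stood at 1021 CPM in metastasis and 317 in naive in microglia with none, at 1351 and 466 CPM with 1 or 2, and at 12480.0 and 35112 CPM with 3 or more. With 3 or more, metastasis was thus the lower, over 123 cells in metastasis and 34 in naive. The class II list was at 1433 CPM in the free RNA of metastasis and 92.1 CPM in that of naive, so in metastasis it was no higher in the microglia with fewer than 3 macrophage UMIs than in free RNA. The part of free RNA in the class II difference was not tested.

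**Figure D3:**
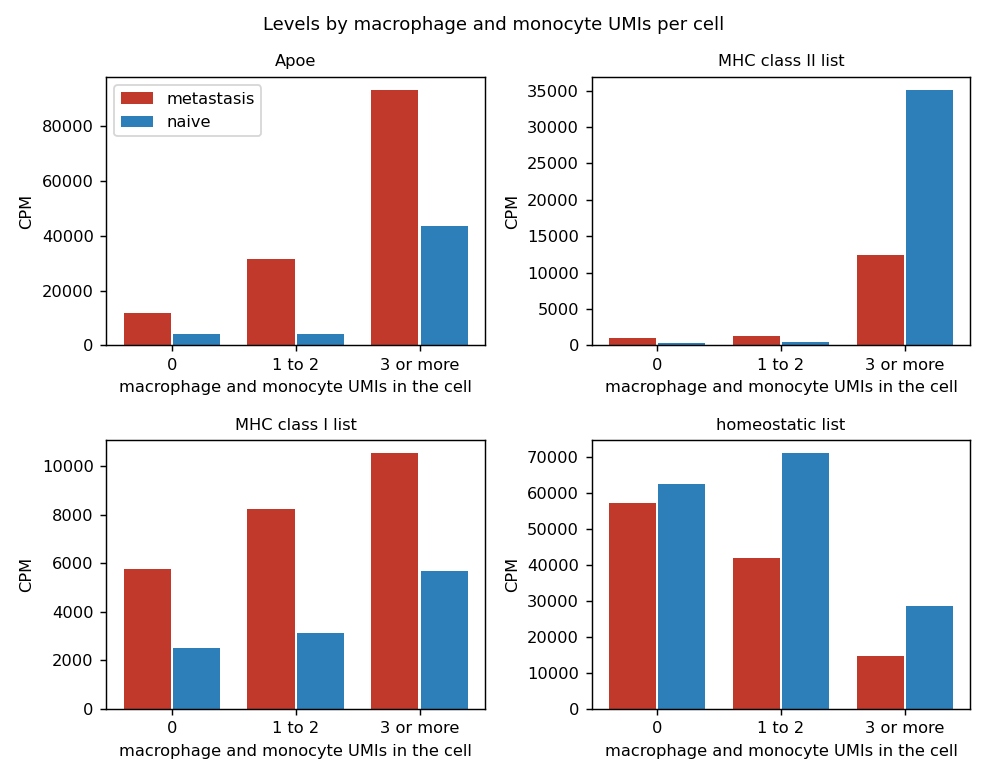
Levels in CPM of Apoe, the MHC class II list, the MHC class I list and the homeostatic list in microglia with 0, 1 to 2, or 3 and more macrophage and monocyte UMIs; bars are sums over the cells of 1 library, metastasis in red left of naive in blue. Apoe and the class I list are higher in metastasis at each step, the homeostatic list is lower at each step, and the class II list is higher in naive at 3 and more UMIs.

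Apoe was higher in metastasis at each step of the same split, with 11753 CPM in metastasis and 4050 in naive at 0 macrophage UMIs, 31585 and 4031 CPM at 1 or 2, and 93091 and 43486 CPM at 3 or more. The MHC class I list stood at 5746 and 2520 CPM, then 8215 and 3134 CPM, then 10529 and 5661 CPM. The homeostatic list stood at 57129 and 62561 CPM with none, 41920 and 71033 CPM with 1 or 2, and 14807 and 28516 CPM with 3 or more. The median depth moved with this split in metastasis and was 1586.5 UMIs with no macrophage UMI and 3469 with 3 or more.

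**Figure D4:**
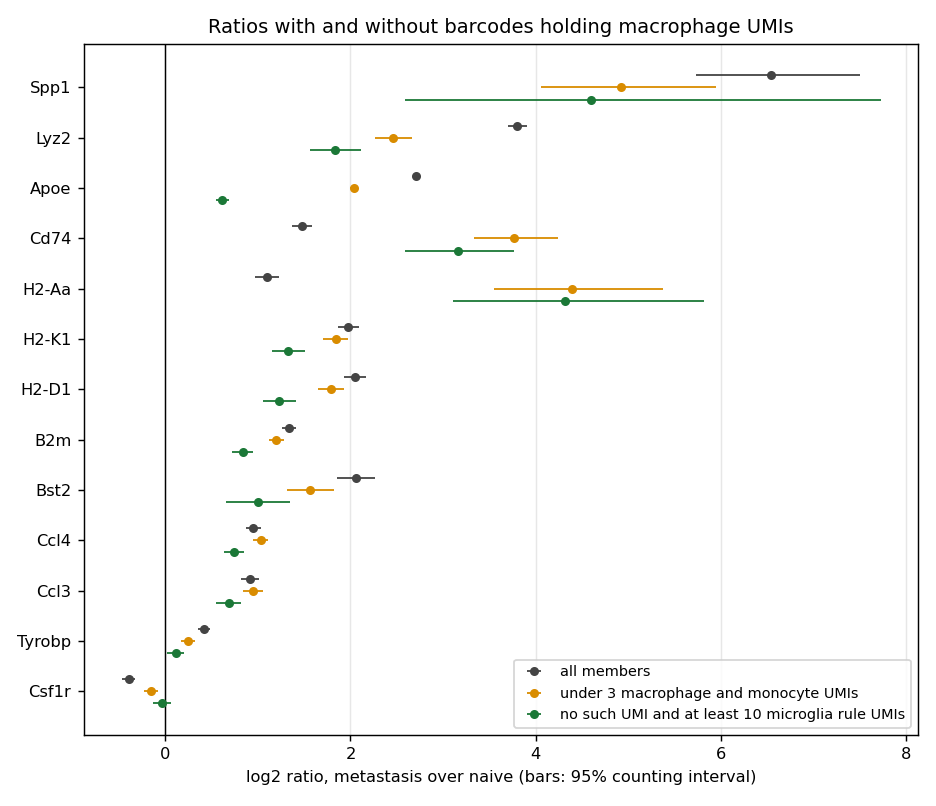
Log2 ratio, metastasis over naive, of 13 genes with 95% counting intervals, over all microglia (dark grey), those with under 3 macrophage and monocyte UMIs (orange) and the marker-rich ones (green). Apoe moves from 2.71 to 0.61 across the subsets, while the class II genes Cd74 and H2-Aa move up.

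Chemokines and cytokines split into a few genes that were much higher and a larger number that were not. Ccl5, a T cell and monocyte attractant also made by T and NK cells, had 251 UMIs in metastasis and 7 in naive (5.36, 4.29 to 6.69), and 62.2 and 5.44 CPM in the marker-rich microglia, beside 128 and 3.68 CPM in free RNA. More UMIs of T and NK cell genes, a list that includes Ccl5, than of microglia genes were found in 8 microglia of metastasis and in 0 of naive. Ccl7, a monocyte attractant, had 180 and 12 UMIs (4.10), of which 5 cells held 65.0% and 83.3%. Il1b, the precursor of interleukin-1 beta, had 348 and 59 UMIs (2.75), and Ccl2, the main ligand of Ccr2, had 326 and 89 (2.06). With under 3 macrophage UMIs 5 of 13 genes of the list were higher, with a median of 0.84. In the marker-rich microglia 2 of 9 were higher, with a median of 0.69. Il1b had 104 and 10 UMIs (3.99) in the former and 27 and 6 (3.18) in the latter. Ccl3 and Ccl4, chemokines that microglia also induce during dissociation, stood at 1336 CPM in metastasis and 708 in naive (0.92, 0.82 to 1.01) and at 2236 and 1156 CPM (0.95, 0.88 to 1.03). Il18 was the lowest of the list with 62 and 120 UMIs (-0.76), and Tnf had 113 and 84 (0.62).

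Receptors for these ligands mostly stayed within 2-fold, with 2 of 17 higher and a median of 0.23. With under 3 macrophage UMIs 0 of 14 were higher, and in the marker-rich microglia 0 of 14. Cxcr4, the receptor of Cxcl12, had 88 UMIs in metastasis and 26 in naive (1.95), and Ccr2, a monocyte receptor, had 64 and 22 (1.73). Cxcr4 in the marker-rich microglia stood at 10.98 CPM in metastasis and 10.88 in naive (0.01, -1.69 to 1.54). Ccr2 is on the macrophage and monocyte list, so the marker-rich microglia hold none of it by their definition. Ccr1 had 31 and 20 UMIs (0.82), and Csf2ra, a GM-CSF receptor chain, had 104 and 70 (0.76). Ifngr1, the ligand-binding chain of the interferon-gamma receptor, stood at 484 and 592 CPM, within 2-fold.

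Complement genes of the C1q complex were abundant and nearly level. C1qa, which tags synapses and debris, stood at 8380 CPM in metastasis and 6721 in naive (0.32, 0.28 to 0.35), and C1qb at 6587 and 5234 CPM. The central component C3 had 59 and 8 UMIs (3.07, 2.003 to 4.35), C4b had 47 and 20 (1.42), and the receptor gene C3ar1 had 414 and 218 (1.12), so 3 of 9 were past 2-fold. The receptor gene C5ar1 had 130 and 103 UMIs (0.53). With under 3 macrophage UMIs 2 of 9 complement genes were higher, and in the marker-rich microglia 0 of 6. Without barcodes led by another marker list C3 turned to -0.41, a value with no minimum of UMIs that may rest on the floor for a sum of 0. C3 and C4b stood below their free RNA in metastasis, at 35.0 CPM against 46.7 CPM and at 27.9 CPM against 35.0 CPM.

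Phagocytic and Fc receptors had 4 of 18 higher, 1 lower and a median of 0.17. With under 3 macrophage UMIs 1 of 16 was higher and 1 lower, and in the marker-rich microglia 0 of 15 were higher and 1 lower. Msr1, a scavenger receptor, had 59 UMIs in metastasis and 7 in naive (3.27), Fcgr4, an activating Fc receptor, had 155 and 23 (2.94), and Clec4a1, a C-type lectin, had 59 and 15 (2.17). Msr1 turned to -0.051 without barcodes led by another marker list, a value with no minimum of UMIs that may rest on the floor for a sum of 0. Mfge8, which bridges apoptotic cells to phagocytes and is made mainly by astrocytes in the brain, had 69 and 204 (-1.37) and stood below free RNA in both. Of 7 checkpoint and costimulatory genes measured none was past 2-fold. Vsir, or VISTA, stood at 535 and 761 CPM (-0.51), Havcr2, or TIM-3, had 207 and 319 UMIs (-0.43), Icosl had 48 and 67 (-0.29), and Lgals9, a galectin that binds TIM-3, had 166 and 165 (0.20).

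TGF-beta signalling, on which homeostatic microglia depend, had 1 of 14 genes lower and a median of -0.30. With under 3 macrophage UMIs 0 of 14 were lower, and in the marker-rich microglia 0 of 11. Tgfb2 had 32 UMIs in metastasis and 75 in naive (-1.04), below free RNA in both, and Itgb8, an integrin chain that activates latent TGF-beta, had 56 and 104 (-0.70). Tgfbr1, the type I receptor, stood at 476 and 684 CPM (-0.52, -0.65 to -0.39), and Smad7, the inhibitory SMAD, had 418 and 675 UMIs (-0.50). In the marker-rich microglia Tgfbr1 differed by -0.23 (-0.40 to -0.06).

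Metabolic and structural lists shifted less. Lysosomal and lipid genes had 2 of 22 higher with a median of 0.38: Plin2, a lipid droplet coat protein, had 187 UMIs in metastasis and 56 in naive (1.93) and Pld3, a lysosomal nuclease, had 270 and 141 (1.13). Npc2, a cholesterol carrier, stood at 1161 and 607 CPM (0.94), and Soat1, which esterifies cholesterol, had 216 and 136 UMIs (0.86). With under 3 macrophage UMIs 1 of 21 lysosomal and lipid genes was higher, and in the marker-rich microglia 0 of 19. Iron and oxidative stress genes had 1 of 14 higher. This was Ftl1, the ferritin light chain, at 2719 and 927 CPM (1.55), a gene with near-identical pseudogenes. With under 3 macrophage UMIs 0 of 14 iron and oxidative stress genes were higher. In the marker-rich microglia 0 of 12 were higher and 1 was lower. Hmox1, heme oxygenase, had 198 and 125 UMIs (0.86), Mt2, a metallothionein, had 169 and 341 (-0.82, and 0.57 without barcodes led by another marker list), and Fth1, the ferritin heavy chain, stood at 11742 and 7811 CPM (0.59). Glycolysis and hypoxia genes had 0 of 19 past 2-fold and a median of 0.33. Ldha, lactate dehydrogenase, had 276 and 184 UMIs (0.78), Tpi1 had 347 and 239 (0.73), Pgk1 had 271 and 193 (0.68), and Hif1a, the oxygen-sensing transcription factor, had 215 and 161 (0.61). Of these 19 genes 3 stood at or above free RNA, and with it subtracted Ldha turned to -0.37 and Tpi1 to -3.54. Neither turned at the lower, Ttr-based fraction of free RNA.

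Cytoskeletal and adhesion genes had 3 of 19 higher and a median of 0.54. With under 3 macrophage UMIs 0 of 17 were higher, with a median of 0.14. In the marker-rich microglia 1 of 15 was higher, with a median of 0.18. Cd44, the hyaluronan receptor, had 50 UMIs in metastasis and 4 in naive (3.84), Lgals1, a galectin, had 404 and 100 (2.21), Itga4, an integrin chain of infiltrating leukocytes, had 36 and 19 (1.11), and Vim, vimentin, had 594 and 357 (0.93). All 4 stood below free RNA in metastasis, and with free RNA subtracted Itga4 turned to -0.58 and Vim to -0.67. Neither turned at the Ttr-based fraction. Cell cycle genes had 4 of 10 higher and a median of 0.77, and 1 of the 10 stood at or above free RNA. With under 3 macrophage UMIs 0 of 5 were higher, and in the marker-rich microglia 0 of 4. Birc5 had 48 and 2 UMIs (4.78, 2.85 to 7.86), Top2a had 64 and 12 (2.61), Pclaf had 41 and 13 (1.85), and Cenpa had 40 and 17 (1.43). The median turned to -0.43 when free RNA was subtracted at fractions of 0.377 in metastasis and 0.454 in naive. It did not turn at the Ttr-based fractions of 0.154 and 0.110. As the sign depended on the fraction, no direction is given for this list.

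Signs of handling stress differed in both directions between the libraries. Of 24 immediate early and dissociation genes 3 were higher (12.5%, against 2.56% of all genes), with a median of 0.10. The median was 0.37 with under 3 macrophage UMIs, 0.26 in the marker-rich microglia and 0.88 in oligodendrocyte-marker barcodes. The part of handling in the other results was not tested. Hspa1a had 1511 UMIs in metastasis and 2881 in naive, and Hspa1b had 949 and 1923. Fos stood at 3184 CPM in metastasis and 2482 in naive (0.36), and Jun, its partner in AP-1, at 3873 and 5048 CPM (-0.38). Nr4a1 had 145 and 79 UMIs (1.07), Gadd45b had 212 and 116 (1.06), Cebpb had 694 and 389 (1.03), and Egr3 had 31 and 19 (0.90). Heat shock genes had none of 14 past 2-fold and a median of -0.14. Hspb1 had 137 and 291 UMIs (-0.90), Hsp90aa1 stood at 627 and 1043 CPM (-0.73), Bag3 had 34 and 61 UMIs (-0.65), and Dnajb1 had 254 and 410 (-0.50).

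Ranked by size over all eligible genes, the 12 highest were Spp1, Wfdc17, Lyz2, Hbb-bs, Ccl7, Cd72, Apoe, Cst7, Hba-a1, Hba-a2, Hbb-bt and Il1b. Wfdc17, a secreted protein of activated macrophages, had 730 UMIs in metastasis and 30 in naive (4.80, 4.27 to 5.37), and Cd72, a lectin-like receptor of B cells and myeloid cells, had 184 and 13 (4.01, 3.21 to 4.95). In the marker-rich microglia Wfdc17 had 20 and 1 UMIs, and Cd72 had 14 and 2. The globin genes were carried by a handful of barcodes. Hbb-bs, a beta globin, had 1456 UMIs in metastasis and 141 in naive (3.56), but 5 barcodes held 96.2% of them in metastasis and 7.80% in naive. At least 1 UMI was held by 60 cells of metastasis and 130 of naive. In the marker-rich microglia Hbb-bs was lower in metastasis, at 47.6 CPM against 88.8 CPM (-0.90, -1.58 to -0.26).

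Of the 12 lowest, 11 are given here: Sox4, Bank1, Dclk1, Ntm, Csmd3, Dnah12, Gria2, Dthd1, Upk1b, Fam110a and Kcnk12, with ratios from -1.18 to -1.52. Several are known from neural or ciliated cells, and the astrocyte and ependymal markers were lower in metastasis too; their part in these ratios was not tested. Sox4, a transcription factor of developing and progenitor cells, was the most abundant, with 227 UMIs in metastasis and 614 in naive (-1.24, -1.47 to -1.02). It stood at 242 and 415 CPM in the marker-rich microglia (-0.78, -1.07 to -0.50). Csmd3, a large membrane protein of the nervous system, had 94 and 243 UMIs (-1.18), and Bank1, a scaffold of B cell signalling, had 29 and 95 (-1.52). Gria2, a glutamate receptor subunit known foremost from neurons and other neural cells, had 39 and 109 (-1.29). Dnah12, a dynein of motile cilia, had 61 and 162 (-1.22). Upk1b, a uroplakin, had 34 UMIs over 31 cells in metastasis and 95 over 81 cells in naive (-1.29). Oligodendrocyte-marker barcodes held under 0.1 CPM of Upk1b in either library, and free RNA held 3.89 CPM in metastasis and 3.68 in naive, while the microglia held 20.2 and 49.3 CPM.

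To see how many cells carried each difference, every cell was thinned to 1000 UMIs. At least 1 UMI of B2m was then found in 83.1% of microglia of metastasis (80.1 to 85.9%) and 63.7% of naive (60.3 to 67.0%), or 91.8% and 83.6% without thinning. In oligodendrocyte-marker barcodes, with median depths of 2789 and 3039 UMIs, B2m was found in 11.5% and 3.51% after thinning. H2-D1 was found in 65.3% and 30.7% of microglia, beside 9.72% and 2.92% of oligodendrocyte-marker barcodes, and Bst2 in 30.8% and 11.5%, beside 3.27% and 0.919%. Lyz2 was found in 53.5% and 16.98%, beside 15.4% and 0.313%, and Cd74 in 22.9% and 5.82%, beside 2.80% and 0.188%. Isg15 was found in 6.63% and 1.61%, beside 0.988% and 0.146%. Without thinning these shares were 79.0% and 50.1% for H2-D1, 47.7% and 21.7% for Bst2, 67.9% and 25.9% for Lyz2, 31.99% and 8.55% for Cd74, and 11.4% and 2.85% for Isg15. C1qa was found in 96.7% of microglia of metastasis and 96.9% of naive, and P2ry12, a gene of the rule, in 60.2% and 76.3%.

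**Figure D5:**
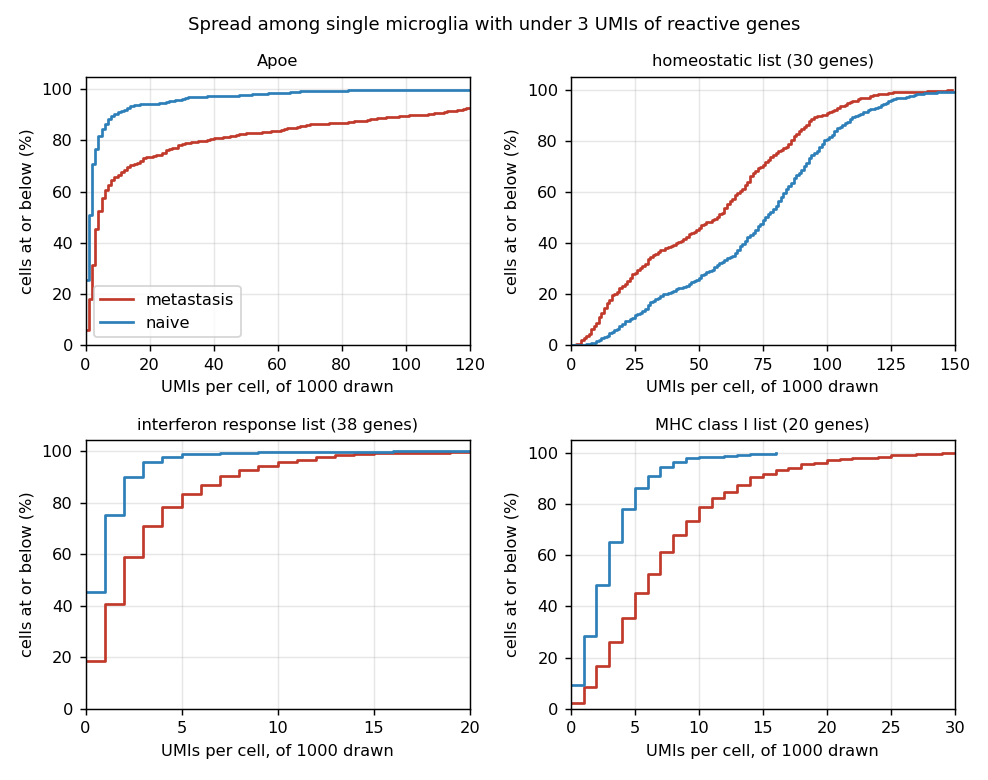
Cumulative share of microglia (vertical axis, percent) at or below a number of UMIs per cell after thinning to 1000 UMIs (horizontal axis), for Apoe and 3 gene lists; red is metastasis (694 cells) and blue naive (807 cells). The MHC class I curve is shifted over its whole length, with medians of 6 and 3 UMIs, while the Apoe curves are farthest apart at 2 UMIs, with 31.4% and 70.6% of cells at or below, and the metastasis curve has the longer tail, with 90th percentiles of 102 and 9 UMIs.

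The differences were spread over cells in different ways. MHC class I genes had a median of 6 UMIs per 1000 in metastasis and 3 in naive, and 47.3% of the cells of metastasis lay above the 90th percentile of naive. Interferon response genes had medians of 2 and 1, with 29.3% of the cells of metastasis above the 90th percentile of naive. Apoe had medians of 4 and 1 UMIs, 75th percentiles of 24 and 3 and 90th percentiles of 102 and 9. In metastasis 34.3% of cells exceeded the 90th percentile of naive. Homeostatic genes had medians of 57 and 76 UMIs, and 70.7% of the cells of metastasis lay below the naive median. Immediate early genes had medians of 19 and 20 UMIs. Among the 694 cells of metastasis, which share 1 library, Spearman's rho between Apoe and the homeostatic list was -0.59, and between Apoe and the macrophage list 0.48.

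Set beside the microglia of metastasis that did hold the reactive genes, the microglia described here had lower levels of Apoe, Spp1 and the class I and interferon lists and a higher level of the homeostatic list. Those 419 barcodes were deeper, with a median of 4443 UMIs, and the rule separated them by genes of the same programmes, so no test applies. The microglia described here stood at 38574 CPM of Apoe against 72048 CPM in the reactive ones, at 582 against 1901 CPM of Spp1 and at 7550.0 against 12220 CPM of the MHC class I list. They stood at 3467 against 6378 CPM of the interferon list and at 42321 against 24011 CPM of the homeostatic list. Within the microglia of metastasis the levels also moved with the reactive UMIs that the rule still allowed. Apoe stood at 23307 CPM in those with 0, at 57653 CPM with 1 and at 58606 CPM with 2, beside 56023 CPM in the barcodes just outside with 3. The median depth was 1651, 1967, 2460 and 2538 UMIs at these 4 steps. In naive Apoe stood at 5486 CPM with 0, 7894 CPM with 1, 9239 CPM with 2 and 6865 CPM with 3.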

How the data were processed

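Single-cell RNA was measured with droplet 3' chemistry in 2 libraries, 1 from the pooled metastasis brains and 1 from the pooled naive brains. Raw UMI counts for each gene in each barcode were deposited, before any filter or normalization, as the whole-number values show. The authors used STARsolo and GRCm38, per the submitters' processing notes; version, annotation and settings are not given in the sources used here. Each library lists 55401 genes, and its counts sum to 89193669 UMIs in metastasis and 69445557 in naive. Coordinates come from GENCODE on GRCm38, which matched 54349 identifiers with their version.

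The UMIs of the chosen barcodes were summed per library and divided by their total over all genes. Ratios were taken for genes with at least 50 UMIs over both sums, with a floor of 3 UMIs per library for a sum of 0. Named genes kept a ratio below that minimum in the subsets and under the alternatives. Intervals are exact Poisson intervals for levels, exact conditional binomial intervals for ratios and exact Clopper-Pearson intervals for shares. PCR and capture noise beyond counting, and the spread between mice, are not covered. The intervals were checked on simulated Poisson counts, the model they assume, so that check does not cover the spread among cells. Free RNA is the CPM of barcodes with 10 to 100 UMIs. It was subtracted at a fraction of 0.377 of UMIs in metastasis and 0.454 in naive, the median over 8 marker lists of other cells. The 8 lists ranged widely, from 0.139 to 0.766 in metastasis and from 0.114 to 1.09 in naive. The highest value of naive is more than all UMIs and thus not a possible fraction. The alternative read from Ttr, a choroid plexus gene, used 0.154 and 0.110. Barcodes with oligodendrocyte markers hold at least 5% of UMIs of those genes and served as the background for shares. Cells were thinned to 1000 UMIs with a fixed seed.

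The genes of the rule and 24 fixed genes are named, with the 12 highest and 12 lowest ratios (10 CPM added to both) among 3618 genes with at least 100 UMIs that stood at or above free RNA in the library where they were higher, without mitochondrial, ribosomal, unnamed, rule and other-cell marker genes. Values of 3 of these genes are not reported here. From each list the text also names up to 4 genes whose ratios were largest in size. Other members named in the text (Lag3, Tap1, Psmb9, Tapbp, Psmb10, H2-DMa, H2-DMb1, Il18, Tnf, Ifngr1, Hspa1a, Hspa1b and the macrophage genes) were chosen after their values were seen. The members and the gene lists were chosen with earlier results of these data known. Of 567 list symbols 565 were in the files. Doublets were scored with scrublet in scanpy 1.11.5 and not removed. Its automatic threshold marked 0 barcodes of metastasis and 855 of naive, so removal at that threshold was not used. Other tools were Python 3.11.15, numpy 2.4.6, scipy 1.17.1, pandas 2.3.3 and matplotlib 3.10.9. Columns of samples outside the series numbered 0.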

Additional observations from a re-analysis of the deposited data

How the results depend on the processing

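No paired analysis was possible because each group is 1 library. The limits are the shallow depth, with genes under 50 UMIs not judged, the absence of replicates, free RNA, and barcodes with transcripts of other cells. Removal of doublets at the automatic threshold was not run, since it marked none in metastasis; the cut at the top 6% of scores, the Ttr-based free RNA, the marker-rich subset and the removal that spares choroid plexus genes were chosen after seeing the data. Of 2139 gene values under 19 alternatives, 1425 stayed within the counting interval, 683 moved out of it and 31 were counted as changed in sign. Of 415 list medians, 348, 66 and 1 did so. A change of sign was counted only where the interval of the main value excluded 0. Other changes of sign are among the values that stayed or moved. The heat shock median, for example, went from -0.14 to 0.027 in the marker-rich subset. The cause of each change was not tested.

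The shares, in metastasis and naive in this order, were 2.74 and 3.18% with at least 2000 UMIs, 3.73 and 5.24% with at least 5 microglia UMIs and 0.3% of UMIs (the stricter marker minimum), 3.19 and 4.89% with no reactive UMI, 4.65 and 4.997% without the top doublet scores, 4.13 and 4.52% without barcodes led by another list but choroid plexus, 1.60 and 0.486% with that list too (220 and 68 microglia), and 2.37 and 4.01% for the marker-rich subset. The naive share was 5.37% with at least 500 UMIs. The metastasis share was 8.10% with no reactive limit and 4.15% under 3 macrophage UMIs.

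Genes at least 2-fold higher numbered 101 with the stricter marker minimum, 123 with no reactive UMI, 510 with no reactive limit, 100 under 3 macrophage UMIs, 48 in the marker-rich subset, 85 without barcodes led by another list, 96 after thinning, 343 with free RNA subtracted, 396 and 125 with minima of 20 and 100 UMIs, and 569 and 112 at folds of 1.5 and 3. Genes 2-fold lower numbered 164, 187, 1229, 80, 101, 22, 54, 616, 672, 88, 1127 and 22 under the same alternatives. They numbered 406 with at least 2000 UMIs, 463 with reactive genes under 0.1%, 121 without the top doublet scores, 412 at the Ttr fraction and 151 centred on the median gene, which left 280 higher. These counts do not compare as shares, since the genes measured differed. Against 8620 in the main result, 7376 were measured with the stricter marker minimum, 7468 with no reactive UMI and 9938 with no reactive limit. The number was 8090 under 3 macrophage UMIs, 5367 in the marker-rich subset and 1915 without barcodes led by another list. It was 6928 with at least 2000 UMIs, 8954 with reactive genes under 0.1% and 6880 without the top doublet scores.

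Interferon response genes past 2-fold numbered 13 with no reactive UMI, 12 under 3 macrophage UMIs, 12 at 100 UMIs, 10 after thinning, 7 in the marker-rich subset and 5 without barcodes led by another list. GTPases numbered 3 with at least 2000 UMIs and at a fold of 3, 2 with the stricter marker minimum, with no reactive UMI, under 3 macrophage UMIs and without barcodes led by another list but choroid plexus, 1 at 100 UMIs, and 0 after thinning, with free RNA subtracted, in the marker-rich subset and without barcodes led by any list. MHC class II genes numbered 0 with the stricter marker minimum and at a fold of 3, 1 without the top doublet scores and over the mean of single cells, and 2 after thinning, with free RNA subtracted and with choroid plexus spared. MHC class I genes numbered 4, disease-associated genes 7 and chemokines 3 without barcodes led by another list. In the marker-rich subset they numbered 6 of 14, 1 of 15 and 2 of 9 measured. These list counts do not compare as shares either, since the members measured differed. Of the GTPases 8 were measured in the main result, 4 under 3 macrophage UMIs and 1 in the marker-rich subset. Of the interferon response genes these numbers were 30, 21 and 14. Without barcodes led by another list 1915 genes were measured in all, against 8620 in the main result. A lower count there does not by itself show smaller ratios.

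With the stricter marker minimum, log2 ratios turned to -0.26 for H2-Aa, -0.23 for H2-Ab1, -0.61 for H2-Eb1 and -2.78 for Ccr2. Without barcodes led by another list they turned to 0.12 for Sall1, -0.27 for Hbb-bs, -3.22 for Hba-a1, -1.64 for Hba-a2, -0.41 for Zbp1 and for C3, -0.051 for Msr1, -0.90 for Top2a, -0.22 for Cenpa, -1.22 for Itga4 and 0.57 for Mt2. These gene ratios had no minimum of UMIs, and a sum of 0 was set to 3 UMIs. Those of genes with few UMIs may thus rest on the floor, foremost in this subset of 220 and 68 microglia. With free RNA subtracted they turned to -0.031 for Gbp2, -2.24 for Irgm1, -1.38 for Top2a, -1.64 for Cenpa, -0.37 for Ldha, -3.54 for Tpi1, -0.58 for Itga4, -0.67 for Vim and -0.43 for the cell cycle median. None of these turned at the lower, Ttr-based fraction. In the marker-rich subset they turned to 0.0048 for Sall1, -0.90 for Hbb-bs, -4.07 for Hba-a1, -0.70 for Hba-a2, -2.16 for Hbb-bt, -0.31 for Itga4 and -0.069 for Hmox1. After thinning Itga4 turned to -0.56. Of the 24 genes named by size, 11 were named again with 50 CPM added and 22 with free RNA of 100 to 300 UMIs.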
